A study of Rattus norvegicus with 18 samples.

Results

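The comparison described here set the 6 arrays of rat spinal cord material given ciliary neurotrophic factor (CNTF) against the 6 control arrays, which makes 12 of the 18 Affymetrix arrays of the series. Arrays were chosen by their labels alone. The CNTF group was labelled with an addition of 10 ng/mL CNTF and, in the same entry, "4d", taken to mean 4 days. The control label names no addition and no time, so it is not known whether controls were taken at the same time as CNTF arrays, and every difference below carries this limit. Both labels open with "14 NT", which was not interpreted. The remaining 6 arrays, of material given bone morphogenetic protein (BMP), 10 ng/mL and "4d", entered only the estimate of the spread. The labels give no strain, age, cell type or culture. They also do not state whether the 6 arrays of a group stem from different animals or cultures, and a p-value here measures no more than the array-to-array spread, part of which may be technical. Each title has a number from 1 to 6 that occurs once per group, and a pair below is the control and the CNTF array of 1 number.

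CNTF is a cytokine of the interleukin 6 family. It binds the receptor subunit Cntfr, which has no signalling domain of its own, and then recruits the signalling subunits Lifr and gp130 (gene Il6st). Janus kinases bound to these subunits phosphorylate STAT3, which enters the nucleus and activates target genes, among them the feedback inhibitor Socs3. In the nervous system CNTF is known as a survival factor for motor neurons and as a cytokine that drives glial progenitors towards astrocytes and makes astrocytes reactive.

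Levels are log2 values of the intensity plus 116.655 (the table's 20th percentile), and the median of the table corresponds to 9.75 on this scale. A difference is the CNTF mean minus the control mean on the same scale, so it understates the change of dim genes. For single groups the lowest, the median and the highest of the 6 arrays are given, and an error after ± is limma's moderated standard error of the difference. A gene was said to rise or fall when limma's p, adjusted by Benjamini-Hochberg over all 31042 probe sets, was under 0.05. Because arrays of 1 number deviated together, counts are also given with the title number as a block. Errors, adjusted p-values and lost calls of single genes are those of the fit without the block, which leaves the pairing out.

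The deposited intensities were scaled alike, with a mean of 2500.7 to 2500.8 after trimming and a median of 666.5 to 817.2 per array. Cell type markers were read first. The highest astrocyte, oligodendrocyte, oligodendrocyte precursor, neuron and neural stem cell markers were bright with CNTF: Gfap (16.32), Mbp (16.06), Olig1 (15.08), Gap43 (15.81) and Sox2 (15.82). Not all members were. Means below the table median in both groups were found for 2 of 9 astrocyte and 3 of 9 oligodendrocyte markers. The same held for 0 of 6 precursor, 5 of 12 neuron and 1 of 6 neural stem cell markers. All 10 microglia and macrophage markers and all 7 measured endothelial markers had means below the table median in both groups. Of 9 measured astrocyte markers 1 rose, Gfap, and with the block 2 rose, Gfap and Aqp4 (1.91), and 1 fell, Aldh1l1 (-1.40). Of 12 neuron markers 0 were called, and Nefl, Nefm and Stmn2 rose with the block (0.48 to 0.86). The summed astrocyte level was 17.15 to 17.66 in controls and 17.70 to 18.23 with CNTF, and the summed neuron level was 16.05 to 16.30 and 16.27 to 16.72. Sums were taken over intensities, so bright genes weigh most. Gfap rose from a mean of 12.36 to 16.32, while the median difference of the 9 astrocyte markers was -0.03. That of the 12 neuron markers was 0.21. Of the remaining sets, 1 of 7 Schwann cell markers (Pmp2) and 1 of 4 ependymal markers (Rsph1) rose, and no marker of the other sets was called without the block. With it, Foxj1, Cldn11, Mag, Lum and Prom1 also rose, and Cspg4 and Hes5 fell. In bulk RNA, fewer cells of a type and less RNA per cell cannot be told apart, and the part of such shifts in the differences below was not tested.

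With CNTF, 492 probe sets were higher (1.58% of those tested) and 229 were lower (0.738%). Among 14217 named genes, each read from its brightest probe set, 289 rose (2.03%) and 117 fell (0.823%). The block raised these counts to 771 risen (5.42%) and 576 fallen (4.05%), and all 406 genes called without it stayed called in the same direction. Rises were larger than falls: 165 of the risen genes changed at least 2-fold and 49 at least 4-fold, against 31 and 0 of the fallen genes. The median difference was 1.12 over risen genes, -0.74 over fallen genes and -0.0046 over all named genes. Of the risen genes 281 were higher in 6 of 6 pairs, and of the fallen genes 116 were lower in 6 of 6, where 1258 and 1202 of all named genes were. These genes were called from the same arrays, so this is a description. CNTF and control arrays did not overlap for 183 risen and 70 fallen genes. Over all named genes, called or not, 235 (1.65%) had every CNTF array above every control array, and 112 (0.788%) had every CNTF array below. Many risen genes started dim, since 137 of them had a control mean below the table median, against 10 of the fallen genes.

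**Figure D1:**
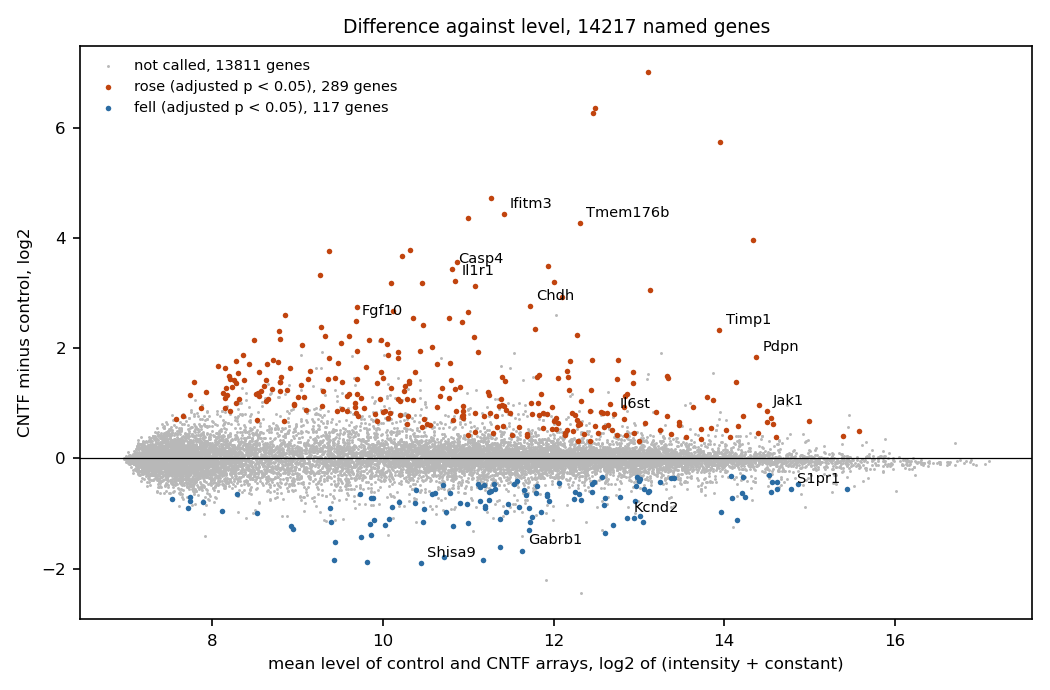
Each point is 1 named gene, with the mean level of the 12 arrays on the horizontal axis and the CNTF minus control difference on the vertical axis, both on the log2 of (intensity + constant) scale. The 289 risen genes reach a difference of 7.02, whereas the lowest of the 117 fallen genes is at -1.90, and fallen genes lie mostly at middle and high levels.

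The pairs differed in how many genes moved. At least 2-fold higher levels with CNTF were seen for 410 genes in pair 1, 628 in pair 2, 754 in pair 3, 465 in pair 4, 501 in pair 5 and 436 in pair 6. At least 2-fold lower levels were seen for 258, 322, 355, 242, 344 and 416 genes in the same order. Pairs 2 and 3 thus held the most genes with higher levels and pair 6 the most with lower levels. For the called genes, which these same arrays selected, the median of the risen genes lay between 0.88 in pair 1 and 1.16 in pair 3, and that of the fallen genes between -0.66 in pair 1 and -0.82 in pair 2.

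The receptor and kinase genes of the CNTF pathway were examined next. The list counts below are to be read beside the shares over all named genes. These were 2.03% risen and 0.823% fallen, and 5.42% and 4.05% with the block. Of 14 measured gp130 cytokines and receptors, 1 rose and 0 fell, a median of -0.03. That gene was Il6st, the shared signalling subunit, at 12.06 to 12.56 in controls (median 12.36) and 12.94 to 13.35 with CNTF (median 13.08). Its pairs differed by 0.87, 0.82, 0.79, 0.63, 0.89 and 0.82, a mean of 0.80 ± 0.13 (limma adjusted p = 0.0016). The groups did not overlap and the 6 pairs lay close together. Of 3 further Il6st probe sets, 2 rose and 1 differed by 0.62 without a call. Cntfr, which binds CNTF, was not called, with means of 10.90 in controls and 10.38 with CNTF (-0.52, adjusted p = 0.186). Lifr was dim in both groups (8.46 and 8.27, difference -0.19, not called).

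Of 28 measured JAK-STAT pathway genes, 6 rose and 0 fell (8 and 0 with the block), with a median of 0.16. Jak1, a kinase that gp130 binds, was bright in controls at 13.85 to 14.28 (median 14.12) and stood at 14.77 to 15.20 with CNTF (median 14.87). The 6 pair differences were 0.92, 0.75, 0.75, 0.96, 1.0 and 0.77 (mean 0.86 ± 0.11, limma adjusted p = 7.69e-05), and a second probe set rose by 0.97. Jak2 rose by less, from 11.46 to 11.82 (median 11.59) to 11.93 to 12.26 (median 12.20), with pair differences of 0.38 to 0.75. Neither kinase gene had a CNTF array as low as its highest control array. Jak3, a kinase known from blood cells, lay below the table median in controls (7.66 to 9.08, median 8.56) and at 9.56 to 10.31 with CNTF (median 9.74), a rise of 1.44 ± 0.25. The feedback inhibitor Socs2 rose by 1.44 ± 0.25 with pair differences from 0.70 to 2.36. The other risen members were Socs3 (3.17) and Stat3 (1.11), for which the 12 arrays again fell into separate ranges. These 6 genes and Il6st kept their calls when any 1 of the 12 arrays was left out. Without all arrays of 1 title number, Jak2 lost its call for number 3 (adjusted p = 0.0583) and the others kept theirs. Of the members not called, Socs1 differed by -0.35 and Cish by 0.29, both of them feedback inhibitors, and Stat5a differed by 0.45.

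**Figure D2:**
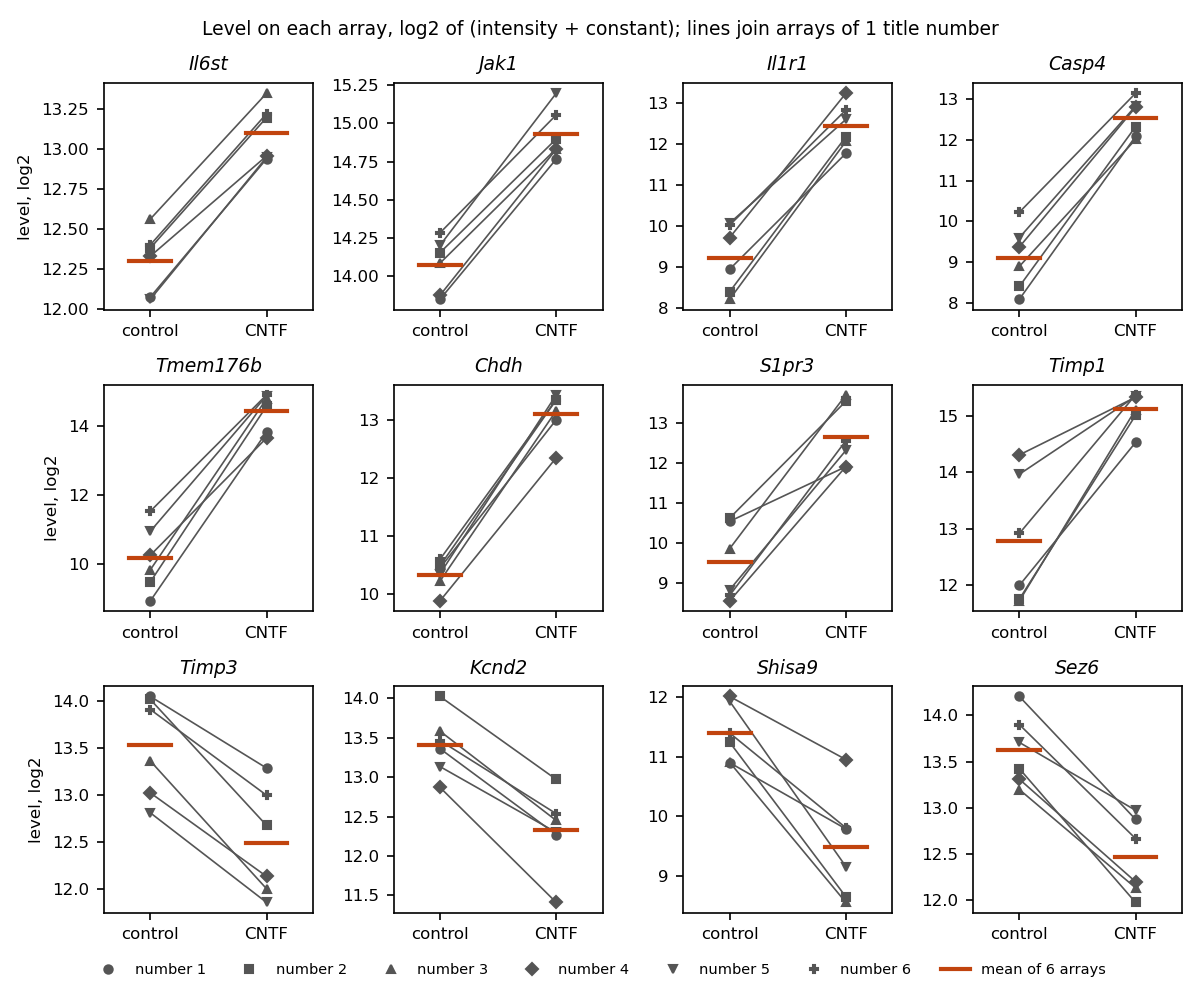
Each panel shows the level of 1 gene on every control and CNTF array, on the log2 of (intensity + constant) scale with a vertical axis of its own. Lines join arrays of 1 title number, and red bars are group means. For Timp3, Kcnd2 and Shisa9 the highest CNTF array reaches into the control range, and for the other 9 genes the groups stay apart.

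The 20 genes with the largest rise were taken from 134 risen genes whose groups did not overlap, which moved the same way in all pairs, whose brighter group mean reached the table median and whose values had not been given in an earlier account of these data. The lack of overlap in these genes is thus their selection. Ifitm3, an interferon-induced membrane protein that blocks virus entry, headed them. It lay at 7.83 to 10.70 in controls (median 9.02) and at 12.59 to 14.59 with CNTF (median 13.77). Its pairs differed by 5.14, 5.05, 5.71, 3.60, 2.96 and 4.14 (mean 4.43 ± 0.58, limma adjusted p = 0.00017), so pairs 1 to 3 moved more than pairs 4 to 6. Members of the Ifitm family are near-identical in sequence, and whether this probe set reads Ifitm3 alone was not tested.

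Tmem176b and Tmem176a, a pair of related multi-span membrane proteins known from immune cells, rose together. Tmem176b stood at 8.94 to 11.54 in controls (median 10.05) and 13.66 to 14.91 with CNTF (median 14.69), with pair differences of 4.89, 5.09, 4.96, 3.40, 3.92 and 3.37 (mean 4.27 ± 0.39, adjusted p = 1.90e-06). Tmem176a stood at 8.31 to 10.46 (median 8.88) and 11.86 to 14.04 (median 12.31). Its pair differences, 3.72, 3.49, 3.37, 3.33, 3.89 and 3.58, varied less than those of Tmem176b although its levels within each group spread over more than 2 log2 units. In the RefSeq annotation (GRCr8) the genes lie on opposite strands of chromosome 4. Their spans overlap, because that of Tmem176a begins at 79101946, before the start site used for its promoter window below (79105819). The start sites used for the windows are 556 bases apart and point away from each other.

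Promoter windows from 250 bases before to 50 after the start site were read for these genes from RefSeq. They are shown because, of the 15 ranked rises that had a window, only Ifitm3 held the letters TTCNNNGAA, the form of site that STAT proteins are known to bind, and because the Tmem176 genes are neighbours that moved together (chosen after their values were seen). The letters are their own reverse complement, so 1 search reads both strands. The window of Ifitm3 is chr1:205541709-205542008, minus strand, that of Tmem176a chr4:79105569-79105868, plus strand, and that of Tmem176b chr4:79105214-79105513, minus strand, all in GRCr8. Capitals mark the match, which begins 33 bases before the start site of Ifitm3.
Ifitm3: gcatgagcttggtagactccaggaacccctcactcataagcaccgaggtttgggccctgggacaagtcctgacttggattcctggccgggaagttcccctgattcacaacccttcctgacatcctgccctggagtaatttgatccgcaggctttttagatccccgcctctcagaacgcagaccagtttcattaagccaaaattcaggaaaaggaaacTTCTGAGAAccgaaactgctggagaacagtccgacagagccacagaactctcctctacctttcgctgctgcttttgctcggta
Tmem176a: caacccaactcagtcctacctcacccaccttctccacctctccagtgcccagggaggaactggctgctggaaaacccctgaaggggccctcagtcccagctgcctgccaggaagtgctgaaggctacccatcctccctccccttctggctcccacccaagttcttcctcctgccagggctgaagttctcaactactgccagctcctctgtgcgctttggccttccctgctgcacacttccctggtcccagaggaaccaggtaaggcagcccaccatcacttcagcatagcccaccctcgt
Tmem176b: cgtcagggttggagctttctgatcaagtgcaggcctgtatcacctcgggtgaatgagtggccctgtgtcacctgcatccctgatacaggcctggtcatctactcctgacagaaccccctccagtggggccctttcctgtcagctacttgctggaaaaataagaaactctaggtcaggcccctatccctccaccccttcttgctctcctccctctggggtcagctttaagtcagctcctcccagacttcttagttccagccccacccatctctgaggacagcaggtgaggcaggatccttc

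Over all genes, the same letters stood in 22 of the 235 risen genes that had a window (9.36%), in 4 of 100 fallen genes (4%), in 7.51% of the genes not called and in 8.87% of all 33469 windows. Examples of other risen genes with a match are Sphk1 (TTCCAGGAA, first base at position -214, with the start site at 0), Zfp36 (TTCTGCGAA, at 10), Casp12 (TTCTGGGAA, at -74) and Adamts4 (TTCTCTGAA, at -121). The 4 fallen genes were Gabrb1 (TTCCTTGAA, at 24, and TTCGCAGAA, at 35), Acsbg1, Tmem196 and Dock4. A match is a description of these windows and not a binding site.

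The caspase gene Casp4 and both interleukin 1 receptor genes were also among the ranked rises. Casp4, an inflammatory caspase that senses cytosolic lipopolysaccharide, lay at 8.09 to 10.22 in controls (median 9.14) and 12.01 to 13.14 with CNTF (median 12.56). The pairs differed by 3.99, 3.91, 3.11, 3.42, 3.22 and 2.91 (mean 3.43 ± 0.37, limma adjusted p = 1.59e-05). Every pair thus showed a rise near 3 or above. Of 25 measured apoptosis regulators, 3 rose and 0 fell (5 and 0 with the block, median 0.11): Casp4, its relative Casp12 (1.13 ± 0.19, pairs 0.65 to 1.66) and the executioner caspase Casp6 (0.96 ± 0.22, pairs 0.69 to 1.38). Casp6 lost its call without any 1 of control 2, 4 or 5 or CNTF 3, 5 or 6 (adjusted p = 0.0511 to 0.0632).

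Il1r1, the signalling receptor of interleukin 1, was at 8.22 to 10.08 in controls (median 9.34) and 11.78 to 13.25 with CNTF (median 12.40). From pair 1 to pair 6 the differences were 2.83, 3.78, 3.85, 3.52, 2.53 and 2.81 (mean 3.22 ± 0.37, adjusted p = 3.07e-05), and both of its other probe sets rose, by 1.64 and 1.55. Il1r2, the decoy receptor that binds interleukin 1 without signalling, went from 6.98 to 8.55 (median 7.48) to 9.77 to 10.53 (median 10.11). Its smallest pair difference was 1.23 in pair 5 and its largest 3.53 in pair 2. Signalling and decoy receptor therefore rose in the same arrays. In a list of 19 interleukin 1 and toll-like receptor genes put together after these values were seen, 5 rose and 0 fell (6 and 0 with the block), and the median was 0.0042. The risen members beside the receptors were the lipopolysaccharide co-receptor Cd14 (1.48 ± 0.28), the inhibitory kinase-like protein Irak3 (1.39 ± 0.27) and Tlr2 (1.20 ± 0.30). Tlr2 was dim, at 6.97 to 8.36 in controls and 7.76 to 8.91 with CNTF, and lost its call in 10 of the 12 fits that left out 1 array, those without control 1 to 5 or CNTF 1, 2, 4, 5 or 6 (adjusted p = 0.0551 to 0.0913). The co-receptor Il1rap differed by -0.28 and was not called. The adaptor Myd88 differed by 0.91 (adjusted p = 0.124) and rose with the block. Microglia and macrophages are known to express many of these genes, and all 10 of their markers were below the table median in both groups, with summed levels of 9.94 to 10.72 in controls and 9.80 to 10.60 with CNTF. The CNTF means of Cd14 (9.55) and Tlr2 (8.53) were below the table median too. The part of these cells in the rises was not tested.

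Of 25 other cytokine receptors, 4 rose and 1 fell (5 and 1 with the block, median 0.10). Besides the interleukin 1 receptors, the tumour necrosis factor receptor Tnfrsf1a rose from 11.56 to 13.12 (median 12.25) to 13.36 to 13.86 (median 13.62), a difference of 1.37 ± 0.23 with pairs from 0.70 to 1.80. The secreted decoy receptor Tnfrsf11b rose by 1.22 ± 0.29 and the interleukin 13 receptor Il13ra2 fell by 0.80, both dim. Tnfrsf11b lost its call without any 1 of control 3, 4 or 5 or CNTF 2, 3, 5 or 6 (adjusted p = 0.0567 to 0.0754). Il13ra2 lost it without any 1 of control 2 to 6 or CNTF 1, 3, 4 or 5 (adjusted p = 0.0543 to 0.101), which leaves the falls of this list at 0 there. Of 27 chemokines and cytokines only Cxcl1 rose, by 1.15 ± 0.29 from a dim control level (median 7.11), and 0 fell (3 and 1 with the block). It lost its call without any 1 of control 1 to 6 or CNTF 4, 5 or 6 (adjusted p = 0.0524 to 0.115).

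Of 20 NF-kappaB pathway genes, 3 rose and 0 fell (5 and 0 with the block, median 0.20). All of them encode ankyrin repeat proteins that bind NF-kappaB, and Nfkbia among them inhibits it. Nfkbia was at 11.71 to 12.27 in controls (median 11.98) and 12.46 to 12.88 with CNTF (median 12.58), with pair differences of 0.34 to 0.87. Nfkbiz rose by 1.13 ± 0.25 and Bcl3 by 0.97 ± 0.21. Their pair differences ranged from 0.26 to 1.82 and from 0.25 to 1.46, in both cases smallest in pair 3 and largest in pair 4. Another Bcl3 probe set rose by 2.34, and a further one differed by 0.99 without a call (limma adjusted p = 0.0549). None of the 3 genes lost its call when 1 array was left out. Without all arrays of 1 title number, Nfkbiz lost it for numbers 2, 4, 5 and 6 (adjusted p = 0.050 to 0.0734), Bcl3 for numbers 1, 4 and 5 (0.0685 to 0.0924) and Nfkbia for number 5 (0.0597).

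Secreted and matrix proteins stood among the ranked rises as well. Tnfaip6, a secreted protein that binds and modifies hyaluronan, was at 9.32 to 10.89 in controls (median 10.36) and 11.86 to 14.73 with CNTF (median 13.79). The pairs differed by 1.31, 5.37, 5.17, 2.61, 2.53 and 4.00 (mean 3.50 ± 0.41, limma adjusted p = 4.50e-05). Pairs 2 and 3 thus rose most and pair 1 least. Thbs4, a thrombospondin of the matrix, rose by 2.67 ± 0.48 with pair differences of 1.33, 3.57, 3.15, 1.59, 2.72 and 3.70. Matn2, a matrilin that joins matrix fibrils, rose by 2.66 ± 0.37 with pairs of 1.64, 3.16, 3.05, 1.74, 3.84 and 2.53. For these 3 genes pair 1 was the lowest. Fgl2, a fibrinogen-like protein that can cleave prothrombin, rose by 2.43 ± 0.31, and its 3 other probe sets rose by 1.70 to 2.35. The growth factor Fgf10 was among the least variable, at 8.01 to 8.74 in controls (median 8.46) and 10.64 to 11.28 with CNTF (median 10.93), with pairs between 2.01 and 2.80.

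Genes of proteases and their inhibitors were examined next. Timp1, an inhibitor of matrix metalloproteases, was at 11.73 to 14.31 in controls (median 12.46) and 14.53 to 15.37 with CNTF (median 15.22). Its pairs differed by 2.53, 3.25, 3.38, 1.02, 1.37 and 2.45 (mean 2.33 ± 0.38, adjusted p = 0.00142). Controls 4 and 5 were already high, and those pairs rose least. Timp3, a relative that stays bound to the matrix, went the other way, from 12.81 to 14.05 (median 13.64) to 11.85 to 13.29 (median 12.40), with pair differences from -0.76 to -1.36 (mean -1.04 ± 0.25, adjusted p = 0.0310). The Timp3 groups overlapped. Its call was lost without any 1 of control 1, 2 or 6 or CNTF 3, 4 or 5 (adjusted p = 0.0728 to 0.0869), and its 3 other probe sets differed by -0.54 to -0.94 without a call. These were the called genes among 25 protease inhibitors (1 rose and 1 fell, 2 and 4 with the block, median 0.02), and the falls number 0 without those arrays. Of 27 matrix proteases, 2 rose and 0 fell (6 and 1 with the block, median 0.17). Adamts4, which cleaves aggrecan-type proteoglycans, rose by 1.48 ± 0.33 with pairs between 1.21 and 1.68, and the serine protease Prss23 by 1.48 ± 0.32 with pairs between 0.63 and 2.28. Adamts4 lost its call without any 1 of control 2 or CNTF 3, 5 or 6 (adjusted p = 0.0513 to 0.0581).

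Plasma-type proteins gave small counts. Of 15 complement genes 2 rose and 0 fell (2 and 0 with the block, median 0.17), the inhibitors Serping1 (3.32) and Cfi. Cfi, a protease that inactivates complement, stayed dim at 7.08 to 7.86 in controls and 8.11 to 9.75 with CNTF. Of 21 coagulation genes only the anticoagulant protein S gene Pros1 rose, by 0.79 ± 0.18, and 0 fell (2 and 0 with the block). Pros1 lost its call without any 1 of control 1 to 4 or CNTF 1, 5 or 6 (adjusted p = 0.0513 to 0.0676). Of 24 iron, copper and acute phase genes 2 rose and 0 fell (3 and 0 with the block): Cybrd1, a membrane ferric reductase (1.57 ± 0.35, pairs 1.28 to 1.76), and Cyba, a subunit of NADPH oxidase (0.57 ± 0.13). Cyba lost its call without any 1 of control 1 or 6 or CNTF 3, 4 or 5 (adjusted p = 0.0508 to 0.055).

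**Figure D3:**
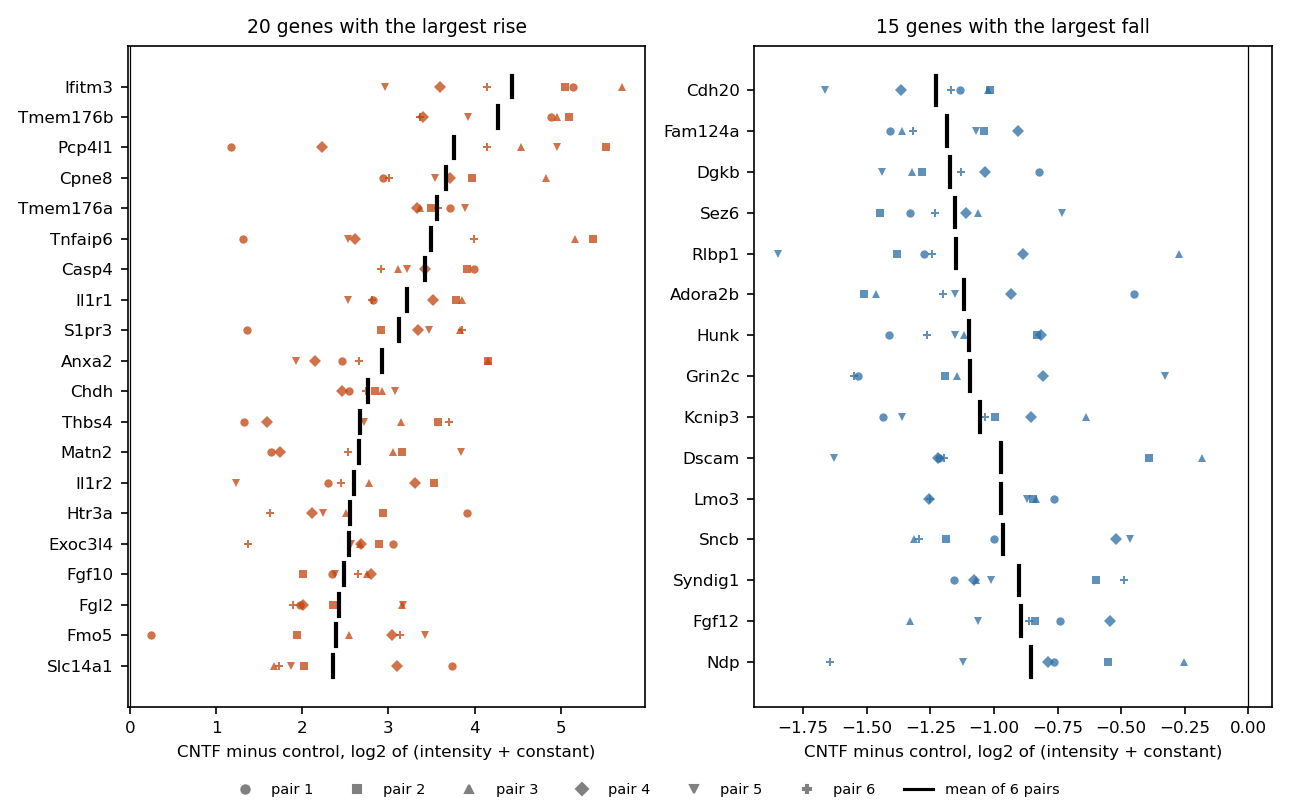
Points are the CNTF minus control differences of single pairs and black bars their means, on the log2 of (intensity + constant) scale. Shown are the 20 genes with the largest rise (left) and the 15 with the largest fall (right) among genes that met the ranking rules. Some called genes that did not meet these rules changed more and are not shown. Every point of the rises lies above 0 and every point of the falls below, as the selection requires, and Fmo5 in pair 1 (0.25) is the point of the rises nearest to 0.

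Annexins and S100 proteins, most of which bind calcium, had the largest median of the 34 function lists, 0.62 over 21 measured members. Of these 4 rose and 0 fell, against 10 and 0 with the block. Anxa2, which links membranes to actin, was at 9.53 to 11.99 in controls (median 10.52) and 12.41 to 14.36 with CNTF (median 13.59). In the single pairs the differences were 2.46, 4.16, 4.16, 2.15, 1.93 and 2.66 (mean 2.92 ± 0.44, limma adjusted p = 0.000746), while a second, dim probe set differed by 0.67 and was not called. S100a4 was steadier, at 8.99 to 10.24 (median 9.56) and 11.08 to 12.30 (median 11.38) with pairs from 1.51 to 2.35. Anxa5 (1.42 ± 0.33) and Anxa11 (0.56 ± 0.14) also rose. Anxa5 lost its call without any 1 of control 1, 2 or 3 or CNTF 3 to 6 (adjusted p = 0.0513 to 0.0665), and Anxa11 without any 1 of control 1, 2 or 3 or CNTF 2 to 6 (adjusted p = 0.0692 to 0.101). S100a11 had a difference of 2.60 (adjusted p = 0.0549), and S100a10, the partner of Anxa2, of 1.56 (adjusted p = 0.285). Both were higher in 6 of 6 pairs and rose with the block.

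Actin cytoskeleton genes had a median of 0.34 over 35 members, of which 3 rose and 0 fell (7 and 0 with the block). Gsn, which severs actin filaments, rose by 1.77 ± 0.37 from 10.54 to 12.21 (median 11.15) to 11.53 to 13.99 (median 13.16), and the groups overlapped. The calponin Cnn3 was bright and moved little but evenly, from 15.14 to 15.25 (median 15.19) to 15.40 to 15.70 (median 15.62). Its pairs differed by 0.18 to 0.54. The actin bundler Pls3 rose by 0.85 ± 0.20, and lost its call without any 1 of control 1, 2 or 3 or CNTF 2 to 5 (adjusted p = 0.0505 to 0.0804). Of 30 lysosome genes 3 rose and 0 fell (8 and 0 with the block, median 0.12). They were the proteases Ctsc (1.28 ± 0.25) and Ctsa (0.65 ± 0.16) and the membrane protein Cd63 (0.49 ± 0.11). Ctsc differed by 2.53 in pair 3 and by 0.04 in pair 5. Ctsa lost its call without any 1 of control 4 or 5 or CNTF 2, 3, 5 or 6 (adjusted p = 0.0611 to 0.0826).

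The remaining ranked rises had varied roles. Chdh, the mitochondrial enzyme that begins the conversion of choline to betaine, had little spread. It was at 9.89 to 10.60 in controls (median 10.40) and 12.35 to 13.43 with CNTF (median 13.25), with pairs of 2.55, 2.85, 2.93, 2.46, 3.07 and 2.74 (mean 2.77 ± 0.25, limma adjusted p = 1.54e-06). Fmo5, a flavin-containing oxygenase, had a mean difference of 2.39 ± 0.36 but only 0.25 in pair 1, against 1.94 to 3.42 in the others. Cpne8, a copine that binds phospholipids with calcium, rose by 3.67 ± 0.35, and of its other probe sets one rose by 3.08 and a dim one differed by 0.70 without a call. Pcp4l1, a small relative of the calmodulin regulator Pcp4, rose by 3.76 ± 0.55, with 1.18 in pair 1 and 5.53 in pair 2. Exoc3l4, related to an exocyst subunit, rose by 2.54 ± 0.28.

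Receptors and transporters of the membrane completed the 20. Htr3a, a subunit of the serotonin-gated cation channel, was at 8.51 to 9.72 in controls (median 9.05) and 10.13 to 13.31 with CNTF (median 11.56), with pairs of 3.91, 2.93, 2.51, 2.11, 2.24 and 1.63 (mean 2.56 ± 0.48). Slc14a1, a urea transporter found on astrocytes, went from 9.43 to 11.41 (median 11.07) to 12.56 to 13.17 (median 13.02), most in pairs 1 and 4 (3.73 and 3.10). It was the only called gene of 25 gap junction, pump and transport genes of glial membranes (1 rose and 0 fell, 3 and 2 with the block, median -0.20). Gap junction gene Gja1 (-0.15) and glutamate transporter Slc1a3 (0.42) were bright and not called.

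S1pr3 and S1pr1, receptors for the lipid sphingosine 1-phosphate, moved in opposite directions. S1pr3 was at 8.56 to 10.62 in controls (median 9.35) and 11.90 to 13.69 with CNTF (median 12.43). Pair by pair it differed by 1.36, 2.91, 3.83, 3.34, 3.47 and 3.85 (mean 3.13 ± 0.71, limma adjusted p = 0.0216). The call was lost without any 1 of control 4, control 6, CNTF 2 or CNTF 3 (adjusted p = 0.0518 to 0.0585). S1pr1 was bright and fell a little, from 14.76 to 15.24 (median 15.11) to 14.32 to 14.83 (median 14.40), with pair differences from -0.31 to -0.90 (mean -0.56 ± 0.12, adjusted p = 0.0150). Its second probe set was dim and differed by -0.62 without a call. In a list of 17 measured genes of sphingosine 1-phosphate and lysophosphatidic acid signalling, put together after these values were seen, 4 rose and 1 fell (4 and 1 with the block), with a median of 0.07. The kinase Sphk1, which makes sphingosine 1-phosphate, rose by 1.65 ± 0.42, the receptor Lpar1 by 1.44 ± 0.36 and the lipid phosphatase Plpp1 by 1.12 ± 0.20. Sphk1 lost its call without any 1 of control 1 to 4 or CNTF 1, 4, 5 or 6 (adjusted p = 0.0529 to 0.102), and Lpar1 without any 1 of control 1, 2, 4 or 6 or CNTF 2 to 6 (adjusted p = 0.0527 to 0.106). Enpp2, the secreted enzyme that makes lysophosphatidic acid, differed by 0.03.

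Falls were smaller and lay at higher levels. The 15 genes with the largest fall were taken by the same rule from 57 fallen genes. Cdh20, a cell adhesion cadherin, headed them, at 11 to 11.69 in controls (median 11.50) and 9.87 to 10.52 with CNTF (median 10.28). The pairs differed by -1.14, -1.02, -1.02, -1.37, -1.66 and -1.17 (mean -1.23 ± 0.17, limma adjusted p = 0.000288). Fam124a followed (-1.18 ± 0.22), and its second probe set also fell. Dgkb, a kinase that removes the messenger diacylglycerol, went from 11.21 to 11.84 (median 11.60) to 10.18 to 10.81 (median 10.38), with pairs between -0.83 and -1.44. The protein kinase gene Hunk (-1.10 ± 0.20) and the LIM-only transcriptional cofactor Lmo3 (-0.97 ± 0.14) fell with both of their probe sets. Lmo3 was among the steadiest, with pairs of -0.77 to -1.26. Ndp, the gene of the secreted Frizzled ligand norrin, fell by 0.85 with pairs from -0.26 in pair 3 to -1.64 in pair 6.

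Other ranked falls encode proteins of known metabolic or signalling roles. Adora2b, an adenosine receptor, was at 9.71 to 11 in controls (median 10.45) and 9.21 to 9.54 with CNTF (median 9.31), with a difference of -0.45 in pair 1 and of -0.93 to -1.51 in the others. Of 25 purine signalling genes it alone fell and the ATP-gated channel P2rx4 alone rose (2 and 1 with the block, median 0.05). P2rx4 (0.79 ± 0.18) lost its call without any 1 of CNTF 3, 5 or 6 (adjusted p = 0.0508 to 0.0578). Rlbp1, a retinoid-binding protein, fell by 1.15 with pairs from -0.27 to -1.85, and lost its call without control 2 or CNTF 5 (adjusted p = 0.0539 to 0.0575). Fgf12, an intracellular relative of growth factors that modulates sodium channels, fell by 0.90, and of its other probe sets one fell and one did not pass the test (-0.55). Sncb, beta-synuclein of presynaptic terminals, fell by 0.96 (adjusted p = 0.0391), but lost its call without any 1 of control 1, 2, 3, 5 or 6 or CNTF 2, 3, 4 or 6 (adjusted p = 0.0513 to 0.0999). Its second probe set was not called (-0.69).

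Receptors for GABA, glycine and glutamate showed calls in 1 direction. Of 32 measured, 0 rose and 3 fell (0 and 8 with the block), and the median was -0.28. Gabra4, a GABA-A receptor subunit, was at 9.61 to 11.53 in controls (median 10.91) and 7.99 to 9.70 with CNTF (median 8.88), with pairs of -1.70, -2.43, -2.81, -0.85, -1.62 and -1.86 (mean -1.88 ± 0.36, limma adjusted p = 0.00567). Its groups overlapped slightly. Gabrb1, another subunit, was brighter, at 11.85 to 13.11 (median 12.42) and 10.04 to 11.52 (median 10.71), with pairs from -1.20 to -2.72. Grin2c, an NMDA receptor subunit, was at 10.04 to 11.15 (median 10.77) and 9.20 to 9.79 (median 9.62), and differed by -1.09 ± 0.25. It lost its call without control 2 or control 6 (adjusted p = 0.052 to 0.0525). The obligatory NMDA subunit Grin1 differed by -0.30 and the AMPA subunit Gria2 by -0.22, neither of them called. The 12 neuron markers had a median difference of 0.21, with members on both sides of 0, and the 6 oligodendrocyte precursor markers one of -0.38, with 0 called and 1 fallen with the block. The part of either cell type in these falls was not tested. The summed precursor level was 16.46 to 16.93 in controls and 16.19 to 16.71 with CNTF.

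Of 40 potassium, sodium and calcium channel genes only Kcnd2 fell and 0 rose (1 rose and 2 fell with the block, median -0.16). Kcnd2, the pore-forming subunit Kv4.2 of a fast inactivating potassium channel, was at 12.87 to 14.02 in controls (median 13.41) and 11.41 to 12.97 with CNTF (median 12.38). Its pairs differed by -1.09, -1.05, -1.13, -1.46, -0.83 and -0.93 (mean -1.08 ± 0.24, limma adjusted p = 0.0171), a narrow span although the groups overlapped, and its second probe set fell by 1.16. The auxiliary subunits were then listed, after these values were seen. Of 9 genes of the Kv4 complex, 0 rose and 4 fell (0 and 6 with the block), with a median of -0.83. The calcium-sensing subunit Kcnip3 was at 11.59 to 12.60 (median 12.31) and 10.96 to 11.56 (median 11.20), with pairs from -0.64 to -1.44, and its second probe set fell too. Kcnip2, of the same family, fell by 1.16 and the peptidase-like subunit Dpp6 by 0.71. Kcnip2 lost its call without any 1 of control 1, 2 or 6 or CNTF 2, 3 or 5 (adjusted p = 0.0521 to 0.0742), and its other probe sets differed by 0.39 and -0.85 without a call. Dpp6 lost it without any 1 of control 2 or 3 or CNTF 3, 4 or 6 (adjusted p = 0.0507 to 0.0627). Without all arrays of 1 title number, Kcnd2 lost its call for numbers 1, 3 and 6 (limma adjusted p = 0.0568 to 0.0839). Kcnip3 lost it for 2 and 5 (0.0502 to 0.0721), Kcnip2 for 1, 2 and 3 (0.0658 to 0.137) and Dpp6 for 1, 2, 3, 5 and 6 (0.0513 to 0.123). Kcnd3 and Kcnip1 fell only with the block (differences of -0.35 and -0.83).

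**Figure D4:**
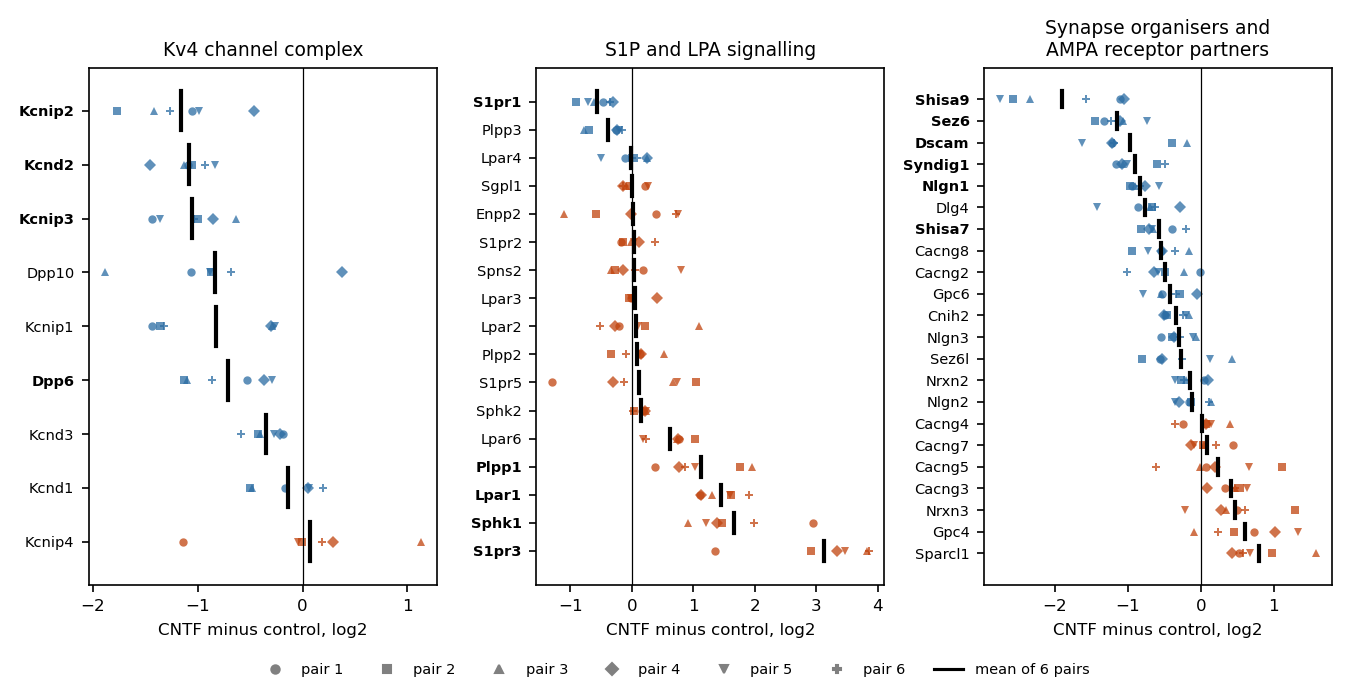
Differences in single pairs (points) and their means (black bars) for every measured member of 3 gene groups assembled after values were seen, on the log2 of (intensity + constant) scale, with called genes in bold. In the Kv4 group the 4 called members are all lower with CNTF, and in the lipid receptor group S1pr1 stands at the negative end and S1pr3 at the positive end.

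Genes that organise synapses or bind AMPA receptors were gathered in the same way. Of 22 measured, 0 rose and 6 fell (2 and 9 with the block), with a median of -0.32. Shisa9, an AMPA receptor partner, was at 10.90 to 12 in controls (median 11.31) and 8.57 to 10.95 with CNTF (median 9.48), with pairs of -1.10, -2.58, -2.33, -1.05, -2.75 and -1.58 (mean -1.90 ± 0.37, limma adjusted p = 0.00692). Its relative Shisa7 fell by 0.58. Sez6, a membrane protein of dendrites and synapses, was bright, at 13.20 to 14.20 (median 13.56) and 11.98 to 12.97 (median 12.43), with pairs between -0.73 and -1.45. Syndig1, which associates with AMPA receptors, went from 9.64 to 10.07 (median 9.84) to 8.48 to 9.34 (median 8.97), and the postsynaptic adhesion protein Nlgn1 fell by 0.83 with both probe sets. The adhesion molecule Dscam fell by 0.97, with differences of only -0.39 and -0.18 in pairs 2 and 3. It lost its call without any 1 of control 2, 4, 5 or 6 or CNTF 1, 4, 5 or 6 (adjusted p = 0.0567 to 0.0897), and its second probe set was not called. Without all arrays of 1 title number, Shisa9 lost its call for number 5 (limma adjusted p = 0.0693) and Sez6 for number 2 (0.0557). Nlgn1 lost it for 2 and 3 (0.0547 to 0.0818), Shisa7 for 2 to 5 (0.054 to 0.0918) and Dscam for 2, 4, 5 and 6 (0.0585 to 0.213). Syndig1 kept its call in these fits. Sparcl1, secreted by astrocytes, had the largest positive difference of the group (0.79, adjusted p = 0.0662) and rose with the block.

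Among growth factor pathways, 3 of 38 Wnt genes rose and 1 fell (4 and 4 with the block), with a median of -0.05. Wnt4, a ligand, went from 7.04 to 9.82 (median 8.96) to 10.60 to 11.63 (median 10.78), with pairs of 2.30, 2.44, 0.88, 3.62, 2.31 and 1.38 (mean 2.16 ± 0.48, limma adjusted p = 0.0175). The ligand Wnt5a rose by 0.90 ± 0.20 and the receptor Fzd1 by 1.01 ± 0.15, the latter from 11.01 to 11.59 (median 11.32) to 11.86 to 12.74 (median 12.30). Sfrp2, a secreted protein that binds Wnt ligands, fell by 1.30 with pairs from -0.53 to -2.39, and its second probe set fell too. All 4 kept their calls when any 1 array was left out. Without all arrays of 1 title number, Wnt4 lost its call for numbers 1, 5 and 6 (adjusted p = 0.0566 to 0.0966) and Wnt5a for numbers 2 and 5 (0.0597 to 0.133). Of 23 insulin and IGF pathway genes 2 rose and 0 fell (3 and 0 with the block): Igf2 (6.36) and the transcription factor Foxo1 (0.83 ± 0.19). Foxo1 lost its call without any 1 of control 1 or CNTF 2, 3 or 6 (adjusted p = 0.0519 to 0.0585).

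Metabolic and stress lists held few calls. Of 34 metallothioneins and antioxidant genes 2 rose and 0 fell (5 and 2 with the block), the cystine transporter Slc7a11 (1.92 ± 0.44) and the membrane glutathione transferase Mgst1. Mgst1 was very bright, at 14.37 to 14.96 in controls and 14.74 to 15.63 with CNTF, a rise of 0.69 ± 0.14. Slc7a11 rose by 3.25 and 3.43 in pairs 2 and 3 and by 0.56 and 0.73 in pairs 1 and 4, and lost its call without any 1 of CNTF 2, 3 or 6 (adjusted p = 0.0554 to 0.0586). Of 29 amino acid synthesis genes and ATF4 targets the transcription factor Cebpb rose (1.24 ± 0.23) and Phgdh, the first enzyme of serine synthesis, fell by 0.61 (1 and 4 with the block). Phgdh lost its call without any 1 of control 2 or 6 or CNTF 2, 3, 4 or 6 (adjusted p = 0.0513 to 0.0634). Of 27 lipid transport genes the apolipoprotein-like Clu rose by 2.24 ± 0.58 and the fatty acid-binding Fabp3 fell by 0.65 (2 and 2 with the block). Clu lost its call without any 1 of control 1 to 4 or CNTF 2 to 6 (adjusted p = 0.0535 to 0.125), and Fabp3 without any 1 of control 1, 2, 5 or 6 or CNTF 2, 3 or 4 (adjusted p = 0.0827 to 0.112).

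A few calls came from 3 further lists. Of 27 prostaglandin and leukotriene genes 2 rose and 0 fell (2 and 0 with the block), the prostaglandin-degrading enzyme Hpgd (0.91 ± 0.21) and the receptor-associated Ptgfrn (0.72 ± 0.16). Hpgd lost its call without any 1 of control 4 or 5 or CNTF 2, 3 or 6 (adjusted p = 0.0529 to 0.0633), and Ptgfrn without any 1 of control 4, control 5 or CNTF 6 (adjusted p = 0.0551 to 0.056). Of 20 circadian clock genes the core factor Bmal1 fell by 0.48 and 0 rose (0 and 4 with the block). Bmal1 lost its call without any 1 of control 2, 3 or 4 or CNTF 2 to 5 (adjusted p = 0.0519 to 0.0802), and Per2 and Cry1 fell only with the block (-0.60 and -0.42). Of 30 phosphatase, kinase and RGS feedback genes the G protein regulator Rgs4 rose by 1.07 ± 0.25 and 0 fell (3 and 1 with the block). Rgs4 lost its call without any 1 of control 2 or 4 or CNTF 3, 4 or 5 (adjusted p = 0.0514 to 0.062).

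In 8 lists limma called no gene. Integrins (19 measured) held 2 genes on the higher side and 0 on the lower with an unadjusted p under 0.05, and 0 calls with the block. Endoplasmic reticulum chaperones (24) held 0 and 0, with 1 fallen with the block, and the major chaperone gene Hspa5 differed by -0.17 from a mean of 15.15. Fatty acid oxidation and mitochondrial genes (31) held 3 and 4, with 1 risen and 2 fallen with the block. The Hedgehog pathway (13) held 0 and 1 with 0 calls, and its ligand Shh was dim in both groups (7.10 and 7.03). Retinoid genes (24) held 2 and 3, with 2 risen and 1 fallen with the block, and EGF family genes (15) held 1 and 2, with 1 and 2. Nuclear receptors (28) held 3 and 3, with 3 and 3, and ubiquitin and antigen processing genes (21) held 2 and 0, with 3 risen and 0 fallen. A missed threshold does not show that these genes did not differ. Of all named genes 2.86% were called. Lists with 1 call and a share near this were ion channels (2.5%), feedback genes (3.33%) and chemokines and cytokines (3.7%). Glial membrane transport genes (4%), coagulation genes (4.76%) and circadian clock genes (5%) were others. Their single calls are no result about these functions. The 34 lists together covered few of the called genes, as 345 of 406 called genes belonged to none of them.

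**Figure D5:**
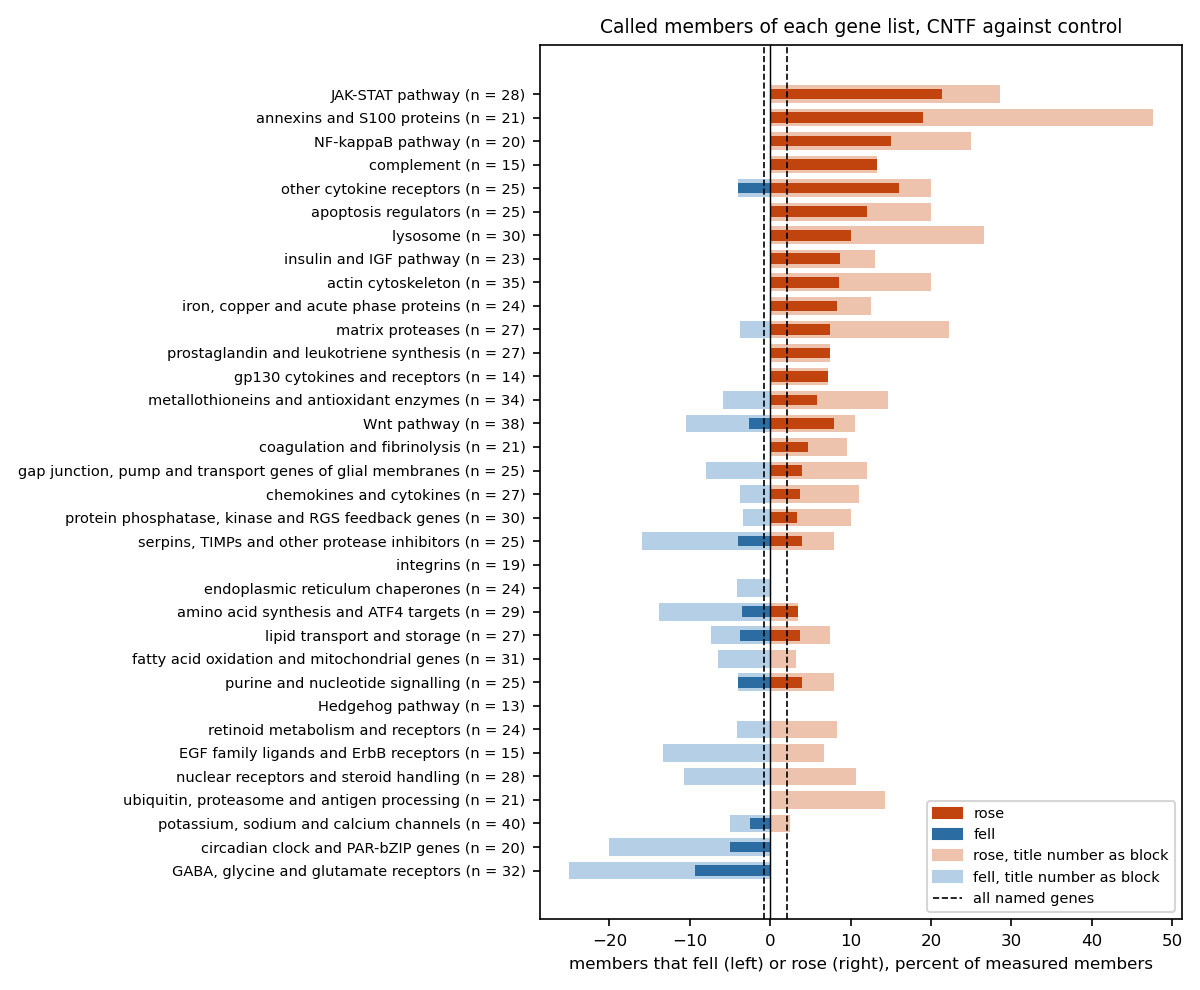
Bars give the share of measured members of each of the 34 lists that rose (right) or fell (left), dark without and pale with the title number as a block, in percent. Dashed lines mark the shares over all named genes, 2.03% risen and 0.823% fallen. JAK-STAT genes have the largest dark share of risen members and GABA, glycine and glutamate receptors the largest of fallen members.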

How the data were processed

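The authors deposited linear probe set intensity values of 18 Affymetrix arrays (31099 probe sets each). How they were summarised and scaled is not given in the sources used here. Values were analysed as log2(intensity + 116.655), and 57 Affymetrix control probe sets were left out. Gene symbols came from the platform annotation. Of 31042 probe sets 20826 had 1 symbol, 436 several and 9780 none, and 20758 of those with 1 symbol matched a current rat RefSeq gene. Only probe sets with 1 symbol were named, and 203 called probe sets had no symbol.

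Group means were fitted to all 18 arrays with limma 3.58.1 (R 4.3.3; empirical Bayes with an intensity trend), two-sided, with Benjamini-Hochberg adjustment and a threshold of 0.05. The fit was tested on simulated data whose arrays varied independently. That test does not bear on arrays of 1 number deviating together. Deviations of the control and the CNTF array of 1 title number from their group means correlated in all 6 pairs (r = 0.425, 0.295, 0.297, 0.491, 0.426 and 0.326), so the numbers were taken to pair the arrays. Counts and some calls with the number as a block are given beside the others. Errors and adjusted p-values of single genes, also with arrays left out, come from the fit without the block. The number of arrays limits the precision.

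Ranked genes were the 20 largest rises and 15 largest falls among called genes with separate groups, the same sign in 6 of 6 pairs, a higher mean at or above the table median and no value in an earlier account. Of each of the 34 lists (970 symbols, 862 measured) up to 4 called members were named. The lists and the comparison were chosen with earlier results of these data known, and 4 further lists after the values were seen. Alternatives were the block, the 12 arrays alone, quantile normalization, other constants, a filter on dim probe sets, no intensity trend, stricter thresholds, the mean of a gene's probe sets and leaving out arrays. Promoter windows were those of RefSeq (GRCr8), available for 11700 of 14217 genes.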

Additional observations from a re-analysis of the deposited data

Results flagged for a closer look

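Single arrays were looked for that lay apart from the other 5 arrays of their group, by the gap to the nearest array as a share of the group's range, against Dixon's 95% critical value. Of 234 groups (117 genes in control and CNTF arrays), 12 held such an array. Chance alone sets apart about 1 in 20 groups.

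Among CNTF arrays, CNTF 4 was low for Fgl2 (10.71, the others 11.62 to 12.09) and for Mgst1 (14.74, the others 15.32 to 15.63) and high for Dgkb (10.81, the others 10.18 to 10.42). CNTF 1 was low for Anxa5 (10.47, the others 11.54 to 12.07) and Cebpb (8.68, the others 9.54 to 9.77). CNTF 6 was low for Ndp (10.02, the others 10.86 to 11) and CNTF 5 was high for Phgdh (14.62, the others 14.06 to 14.23). In 6 of these 7 cases, all but Ndp, the array lay closer to the control level than the others did.

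Among control arrays, control 6 was high for Slc7a11 (9.94, the others 8.89 to 9.23), Tlr2 (8.36, the others 6.97 to 7.32) and Mylk (11.42, the others 9.15 to 9.71). Control 5 was high for Cd14 (8.92, the others 7.67 to 8.11), and control 3 was low for Kcnip3 (11.59, the others 12.22 to 12.60).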

How the results depend on the processing

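The 721 called probe sets became 2349 with the replicate block (1300 higher and 1049 lower, 55.3% higher against 68.2%), 327 at an adjusted p under 0.01 and 353 when a 2-fold change was also required. Leaving out arrays gave 366 to 795 (the latter without CNTF 1): 366, 389, 406 and 420 without all arrays of numbers 5, 2, 6 and 3, and 483 or more without any single array. The 12 arrays alone (697), quantile normalization (736), other constants (710 and 690), the filter on dim probe sets (678) and no intensity trend (665) stayed within 1.5 times. None of the 117 called genes that were followed through the alternatives changed direction; genes not called were not followed. Stricter thresholds and the mean of a gene's probe sets were not applied to these single genes. The filter on dim probe sets left 99 of the 117 in the fit. Of the 35 ranked genes, 27 kept their call in every fit that was applied to them, and 30 when any 1 control or CNTF array was left out. Without all arrays of 1 title number, 60 of the 117 lost their call at least once. Among these were 28 of the 85 that no single array decided (adjusted p = 0.050 to 0.133): Adora2b, Gabra4, S1pr1, Cd14, Cybrd1, Gsn, Ctsc, Cd63, Prss23 and Mgst1, beside those given with their values elsewhere. The block ended no call of these 117 genes. The 12 arrays alone ended the calls of Tnfrsf11b, Il13ra2, Cxcl1, Timp3, Clu and Fabp3, a smaller constant those of Il13ra2, Cxcl1 and Sphk1, a larger constant those of Anxa11 and Clu, quantile normalization that of Clu, and no intensity trend those of Sncb, Anxa11, Clu, Fabp3 and Lpar1; the cause was not tested. Counts of the lists are small, and 37 of 68 moved over 1.5 times with the block. The 6 arrays per group limit the precision, and the size of a difference depends on the constant. With the table median as constant 41 of the 117 differences were over 1.5 times smaller, and with the 5th percentile 6 were over 1.5 times larger: Il1r2 was 1.10 and 3.80, Cxcl1 0.33 and 2.21, Hpgd 0.26 and 1.69, and Tlr2 0.34 and 2.37. No other setting moved a difference that far.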

Other observations

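Of the 406 called genes, 345 were in no list. The genes that follow were chosen from the called genes after their values were seen, and kept their calls when any 1 control or CNTF array was left out. Without all arrays of 1 title number, Gch1 lost its call for numbers 2, 3, 5 and 6 (limma adjusted p = 0.0618 to 0.0779), Mylk for 2, 3 and 5 (0.0703 to 0.0963), Lgals3 for 2 and 3 (0.0812 to 0.0981), Mgp for 3 and 4 (0.0538 to 0.0717), Astn1 for 2 (0.0521) and Ntm for 4 (0.0533). Several bright genes of the cell surface rose with CNTF. Pdpn, the mucin-type membrane protein podoplanin, was at 12.04 to 14.50 in controls (median 13.53) and 14.85 to 15.58 with CNTF (median 15.30), with pairs from 0.99 to 2.82. Sdc4, a heparan sulfate proteoglycan of the membrane, rose by 1.79 ± 0.26 and Chl1, a neural adhesion molecule, by 1.79 ± 0.34. Lgals3, the galactose-binding lectin galectin 3, rose by 3.06 ± 0.66, but its controls ranged from 9.49 to 13.91 and overlapped the CNTF arrays (13.80 to 15.23). Its pairs differed by 2.94, 5.08, 5.49, 1.21, 1.98 and 1.67, so pairs 1 to 3 moved more. The matrix protein Mgp rose by 3.19 ± 0.66 and the extracellular sulfatase Sulf1 by 2.74 ± 0.48, both with overlapping groups. Fgfrl1, an FGF receptor without a kinase domain, rose by 1.45 ± 0.20, and Ece1, which activates endothelin, by 1.48 ± 0.18.

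Sbno2, Junb and Zfp36 encode regulators of transcription or mRNA. Sbno2, a transcriptional regulator, was at 9.39 to 10.27 in controls (median 10.08) and 11.52 to 12.77 with CNTF (median 12.22), and rose by 2.20 ± 0.20 with pairs of 1.43 to 3.35 (limma adjusted p = 2.46e-06). Junb, a subunit of AP-1, went from 8.49 to 9.10 (median 8.98) to 10.57 to 11.64 (median 11.02), with pairs of 1.65 to 2.66. Zfp36, which destabilises cytokine mRNAs, rose by 1.46 ± 0.21. Other rises were those of the myosin light chain kinase Mylk (2.48 ± 0.52) and of Gch1, the first enzyme of tetrahydrobiopterin synthesis (2.23 ± 0.46). In pair 1 Gch1 differed by only 0.08, and a second probe set of each of these genes was not called. Sst, the neuropeptide somatostatin, rose from 8.12 to 8.86 (median 8.43) to 9.69 to 11.58 (median 10.30). Among falls, the neuronal migration protein Astn1 was bright and fell by 0.62 from a control median of 14.54, and the adhesion molecule Ntm fell by 0.91 with both probe sets.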
